A study of Mus musculus with 18 samples.

Results

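Malat1 and Neat1 are long non-coding RNAs transcribed from neighbouring genes on mouse chromosome 19, and Sfpq, Nono, Pspc1 and Rbm14 encode proteins of the paraspeckle, the nuclear body that is assembled on Neat1. All probes of the array that carry 1 of these names were taken, together with those of the region chr19:5795690-5797464_F, which lies on the strand opposite to Malat1. This gave 7 names with 12 probes, out of 35527 names with 55681 probes besides controls. For each of them the RNA of myofiber nuclei was compared with the RNA of myofiber cytoplasm, and the non-coding RNAs were compared with the mRNAs of the paraspeckle proteins.

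Neat1 is the scaffold of paraspeckles, and its long form runs far beyond the short polyadenylated form that starts at the same promoter. Sfpq, Nono and Pspc1 belong to the DBHS family, whose members pair with each other and bind Neat1, while Rbm14 is a further protein needed to assemble the body. Malat1 is an abundant RNA of nuclear speckles, the bodies that hold splicing factors. An mRNA is made in the nucleus and translated in the cytoplasm, so the mRNA of a paraspeckle protein need not lie where the protein works.

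The samples were pools of 5 to 10 intact fibers, dissociated with collagenase from 3 hindlimb muscles of female CD1 mice aged 3 months, namely the soleus, the tibialis anterior (TA) and the extensor digitorum longus (EDL). Lysed pools were separated by centrifugation into a pellet of nuclei and a supernatant, called cytoplasm here, and total RNA of each was labelled and hybridized to a one-colour Agilent array. The 6 groups held 3 arrays each, 18 in all. A value is the log2 of the processed signal after quantile normalization, so a difference of 1 is a doubling of the signal relative to the other RNAs of the fraction. The amount of RNA per nucleus or per fiber was not measured, and fewer cells of a type cannot be told apart from less RNA per cell.

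Myh7, the slow myosin, set soleus apart: it lay at 14.08 to 15.03 on the 6 soleus arrays and at 11.60 at most on the others. The markers of myofibers were well above background in both fractions. Of 6 endothelial markers 6 were higher in nuclei (median difference 1.20), as were 5 of 6 connective tissue markers (0.90) and 3 of 4 Schwann cell markers (0.95), but also 6 of 8 myofiber markers (0.84). Among all probes tested over the 3 muscles 31.2% were higher in nuclei and 38.6% lower, with a median of -0.08. The summed endothelial signal was 1242 to 4777 on the cytoplasmic and 4745 to 6928 on the nuclear arrays, the connective tissue signal 19560 to 45467 and 37900 to 73562, and the Schwann cell signal 241 to 698 and 591 to 1631. The 4 macrophage markers tested were lower in nuclei (-0.82), with sums of 2926 to 7022 and 2475 to 2913, and of 3 erythroid markers none rose and 1 fell, with sums of 8120 to 27330 and 6166 to 12487. The part of these cells in the differences below was not tested. EDL and soleus had all cytoplasmic arrays on slide 1 and all nuclear arrays on slide 2, scanned on different days, so fraction and slide cannot be told apart there. TA nuclei lay on slide 4 with TA cytoplasm 2, and TA cytoplasm 3 on slide 3, scanned on the same day. TA nuclei thus shared no slide or scan day with EDL or soleus nuclei, and muscle and slide cannot be told apart in any nuclear comparison with TA. TA cytoplasm 1, on slide 1, stood apart from the other TA arrays in Cdh15, a satellite cell marker. Cdh15 lay at 6.60 there and at 11.55 to 12.53 on the other 5 TA arrays. On the EDL and soleus arrays, all on slides 1 and 2, Cdh15 lay at 6.26 to 7.00. TA cytoplasm 1 was thus at their level, and the other 5 TA arrays, on slides 3 and 4, lay above it. The cause was not tested. Myf5 was not well above background on any array. Pax7, another satellite cell marker, was well above background on 8 arrays, with group means from 2.74 (EDL cytoplasm) to 5.45 (TA nuclei).

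The sequences of the probes that carry the comparison of the non-coding RNAs are given 5′ to 3′, with positions on the mouse build mm9 as the array files give them. The Malat1 probe (chr19:5795713-5795772, reverse strand) lay 6928 bases from the start of the 6983-base interval of the gene, near its 3′ end. The Neat1 probe (chr19:5842564-5842623, reverse strand) lay 2882 bases from the start, near the 3′ end of the short form; its capitals mark the 30 bases that it shares with the array's own NEAT1 probe A_30_P01020135. The 3 probes of the opposite strand (chr19:5797234-5797293, chr19:5797294-5797353 and chr19:5797388-5797447, forward strand) followed each other inside the Malat1 interval.
Malat1 A_55_P2021187: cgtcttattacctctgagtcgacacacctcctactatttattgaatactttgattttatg
Neat1 A_51_P234692: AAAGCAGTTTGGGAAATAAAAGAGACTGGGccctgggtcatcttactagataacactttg
Antisense region 1, A_30_P01033068: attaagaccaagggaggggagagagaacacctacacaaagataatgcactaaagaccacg
Antisense region 2, A_30_P01022204: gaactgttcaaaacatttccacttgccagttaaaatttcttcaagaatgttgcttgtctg
Antisense region 3, A_30_P01031405: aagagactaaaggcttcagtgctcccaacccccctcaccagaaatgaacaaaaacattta

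The mRNA probes lay on chromosome 4 for Sfpq (chr4:126707977-126708036 and chr4:126708420-126708479, forward strand), X for Nono (chrX:98643867-98643926 and chrX:98643869-98643928, forward), 14 for Pspc1 (chr14:57341870-57341929, reverse) and 19 for Rbm14 (chr19:4800961-4801020 and chr19:4802874-4802933, reverse). The exon or UTR that each probe falls in was not analysed here. Both Nono probes overlap over 58 bases and differ at 3 of them, T21G, A28G and A47G, counted from the 5′ end of A_55_P2062622. The stretch of 29 bases that holds the 3 differences, in capitals, is shown because the probes are no independent measure of Nono.
Nono A_55_P2062622: cTtcatgcAgcatcaccttattaaaatAc
Nono A_55_P1957927: cGtcatgcGgcatcaccttattaaaatGc

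Over the 3 muscles, 10 of the 12 member probes could be tested and 10 of these were higher in nuclei (limma, adjusted p under 0.05), beside 31.2% of all probes tested. Within EDL 8 of 11 were higher, beside 20.0% of all probes, within soleus 6 of 11, beside 18.7%, and within TA 8 of 11, beside 19.2%. The 11 include a dim probe, the second one of Sfpq in EDL and soleus, called in both, and Pspc1 in TA, not called, of which the cytoplasm was not well above background on any array. Without them the counts were 7, 5 and 8 of 10. No member probe was lower in nuclei in these tests, beside 38.6% of all probes over the 3 muscles and 26.5%, 21.7% and 33.5% within EDL, soleus and TA. The non-coding RNAs were 6.56 to 19.4-fold higher over the 3 muscles and the mRNAs of Sfpq, Nono and Rbm14 1.40 to 2.02-fold.

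Malat1 lay at 5.68, 6.14 and 6.95 in EDL cytoplasm and at 9.46, 9.34 and 9.42 in EDL nuclei, means of 6.26 ± 0.64 and 9.41 ± 0.06 (SD, n = 3). In soleus it lay at 6.58, 5.07 and 6.07 in cytoplasm and at 9.37, 9.39 and 9.28 in nuclei. TA cytoplasm gave 6.32, 8.77 and 8.78, and TA nuclei 9.23, 9.70 and 9.60. The nuclear arrays lay above the cytoplasmic ones in every muscle, with a wide gap in EDL and soleus and a narrow one to 2 of the TA cytoplasm arrays. The difference was 2.71 over the 3 muscles (SE 0.31, 6.56-fold, limma adjusted p = 1.6e-06). EDL differed by 3.15 (8.85-fold, adjusted p = 0.00026), soleus by 3.44 (10.8-fold, 0.00018) and TA by 1.55 (2.93-fold, 0.023). The TA value rested on TA cytoplasm 1, the array on slide 1 that also lacked the Cdh15 signal of the other TA arrays: without it the difference was 0.73 (SE 0.38, adjusted p = 0.12), and within slide 4 it was 0.74 (SE 0.50, 0.24). Slide 4 holds 1 TA cytoplasm array, which was assumed to vary like the other groups, and the same holds for the other values within slide 4. Why that array differed was not tested.

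Neat1 gave 9.99, 10.14 and 10.68 in EDL cytoplasm against 12.83, 12.80 and 12.87 in EDL nuclei. In soleus it gave 10.79, 10.90 and 10.15 against 13.47, 13.36 and 13.48, and in TA 9.15, 8.70 and 9.46 against 12.08, 12.06 and 12.06. The fractions did not overlap in any muscle, and the 3 TA cytoplasm arrays stayed together here. The difference was 2.78 over the 3 muscles (SE 0.14, 6.89-fold, limma adjusted p = 4.5e-10), and by muscle 2.57 (EDL, adjusted p = 1.7e-06), 2.82 (soleus, 8.7e-07) and 2.96 (TA, 8.9e-07). In TA it was as large without TA cytoplasm 1 (2.98) and within slide 4 (3.36).

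**Figure D1:**
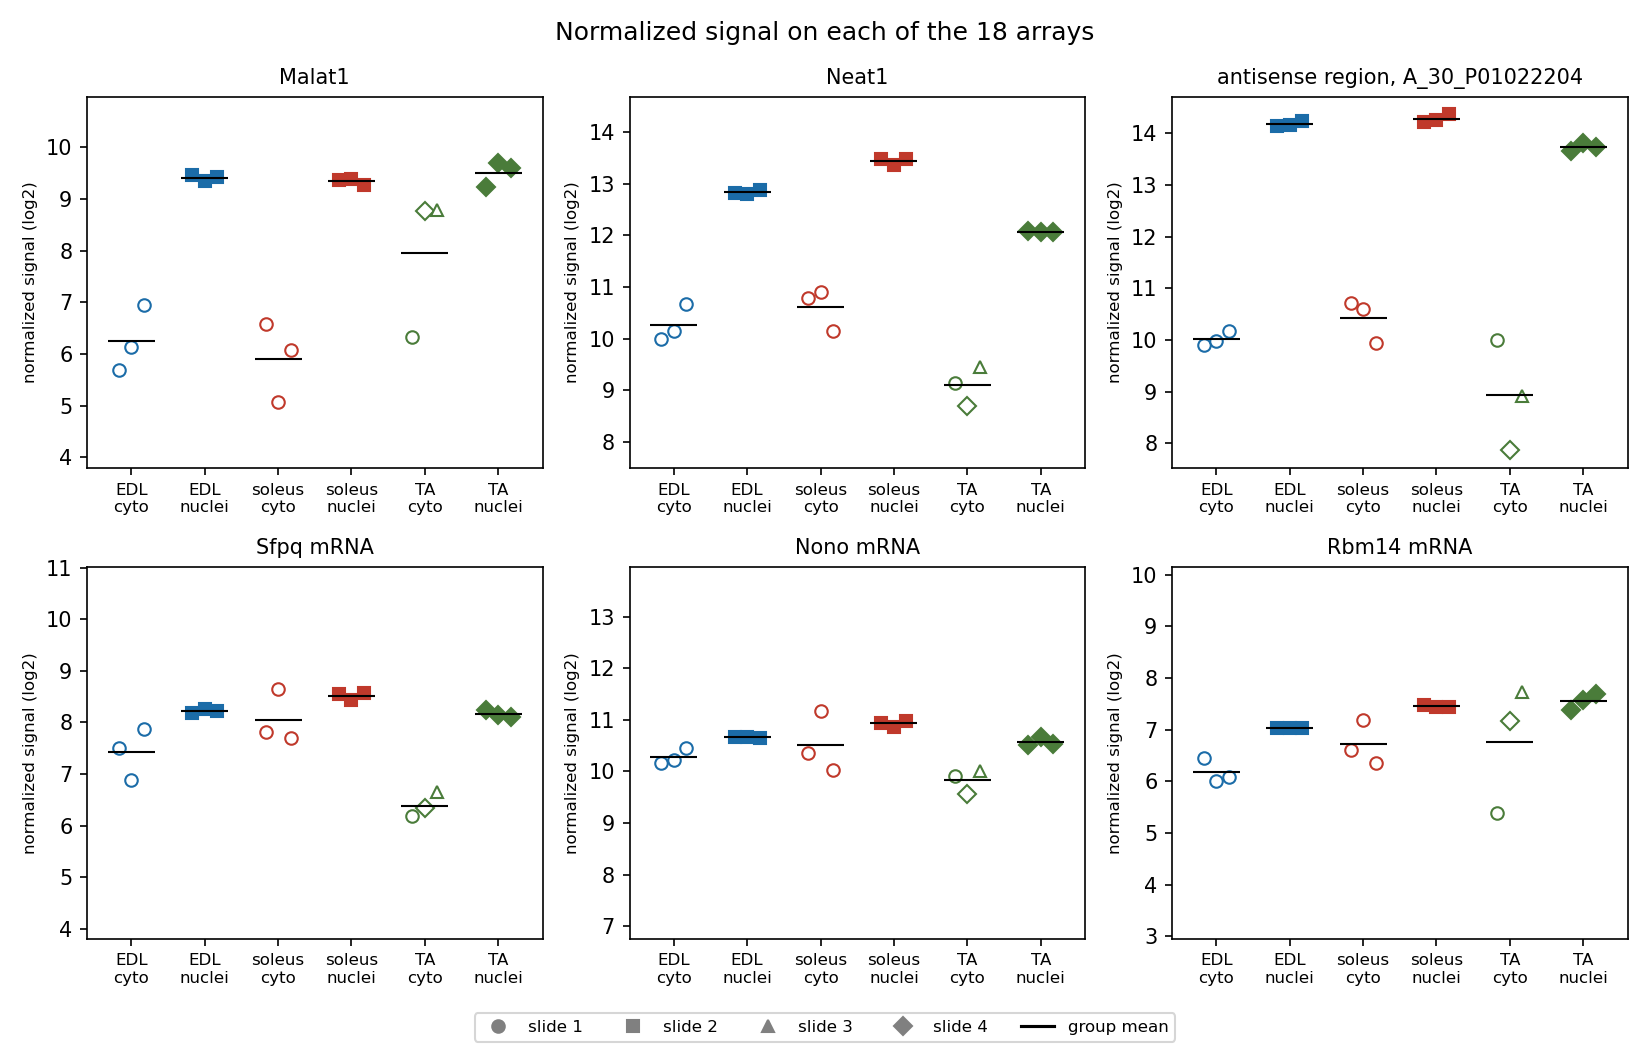
Normalized signal (log2, y axis) of Malat1, Neat1, the antisense probe A_30_P01022204 and the mRNAs of Sfpq, Nono and Rbm14 on each array, by group (x axis); open points are cytoplasm, filled points nuclei, the shape is the slide and the line the mean of the 3 arrays. Malat1 lay at 6.32 on TA cytoplasm 1 and at 8.77 and 8.78 on the other TA cytoplasm arrays, while the nuclear arrays of each group lay close together.

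The antisense region within Malat1 showed the widest difference among the members. Its probe A_30_P01022204 lay at 9.91, 9.98 and 10.17 in EDL cytoplasm and at 14.15, 14.16 and 14.24 in EDL nuclei. In soleus the values were 10.72, 10.59 and 9.95 against 14.22, 14.26 and 14.37, and in TA 10.00, 7.86 and 8.92 against 13.66, 13.82 and 13.73. All 9 nuclear arrays lay above all 9 cytoplasmic arrays. EDL differed by 4.16 (17.9-fold), soleus by 3.86 (14.6-fold) and TA by 4.81 (28.0-fold), each with a limma adjusted p under 0.05. The neighbouring probe A_30_P01033068 lay at 11.01, 11.22 and 11.11 against 13.98, 13.93 and 13.99 in EDL, at 11.43, 11.50 and 11.05 against 13.79, 13.85 and 13.68 in soleus, and at 11.21, 8.84 and 9.59 against 13.32, 13.26 and 13.16 in TA. Over the 3 muscles it differed by 2.89 (SE 0.23, 7.40-fold), and A_30_P01031405 by 3.04 (SE 0.18, 8.25-fold). These 3 probes thus gave unequal differences, from 2.89 to 4.28, although they lie next to each other on 1 strand.

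Sfpq, whose protein pairs with that of Nono, was read by A_55_P2128451 at 7.50, 6.89 and 7.87 in EDL cytoplasm and at 8.19, 8.26 and 8.22 in EDL nuclei. In soleus the values were 7.81, 8.65 and 7.70 against 8.55, 8.44 and 8.57, and in TA 6.18, 6.34 and 6.65 against 8.25, 8.14 and 8.11. The fractions were apart in EDL and TA and overlapped in soleus, where cytoplasm 2 was the highest array. The difference was 1.02 over the 3 muscles (SE 0.15, 2.02-fold, limma adjusted p = 2.2e-05). EDL gave 0.80 (0.019), soleus 0.47 (0.16) and TA 1.78 (6.3e-05). Without soleus cytoplasm 2 the soleus difference was 0.76 (adjusted p = 0.015). The second probe, A_55_P2164189, was well above background on every nuclear array and on no cytoplasmic array, so only a bound can be given: Sfpq was at least 2.17-fold higher in EDL nuclei (adjusted p = 0.013), at least 1.64-fold in soleus nuclei (0.046) and at least 2.89-fold in TA nuclei, where too few cytoplasmic values were left for a test. The p-values rest on 2 cytoplasmic values per muscle that were not well above background (3.14 and 3.52 in EDL, 2.48 and 5.06 in soleus). The bound sets the nuclear mean against a mean over the cytoplasmic arrays. Each array entered with the lowest signal that was well above background on it, or with the probe's own value where that was higher. A dim probe can exceed that lowest signal, so the bound is approximate.

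Nono, read by A_55_P1957927, lay at 10.16, 10.23 and 10.45 against 10.67, 10.66 and 10.65 in EDL (cytoplasm against nuclei), at 10.35, 11.17 and 10.02 against 10.94, 10.87 and 10.98 in soleus, and at 9.91, 9.56 and 10.01 against 10.51, 10.66 and 10.53 in TA. The nuclear arrays were higher throughout in EDL and TA, and in soleus cytoplasm 2 was the highest of the 6. Over the 3 muscles the difference was 0.51 (SE 0.13, 1.43-fold, limma adjusted p = 0.0033) for this probe and 0.49 (SE 0.12, 1.40-fold, 0.0018) for A_55_P2062622. By muscle only TA passed the test, at 0.74 (adjusted p = 0.015) and 0.64 (0.017; 0.63 and 0.074 with the mice as a block), with 0.38 (0.19) and 0.37 (0.15) in EDL and 0.42 (0.17) and 0.46 (0.085) in soleus. Without soleus cytoplasm 2 the soleus difference was 0.74 (0.0033) and 0.72 (0.0038). The TA value of 0.63 with the mice as a block rests on TA replicates 1 and 2 alone.

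Rbm14 was read by A_51_P116616 at 6.45, 6.00 and 6.08 in EDL cytoplasm against 7.04 on all 3 arrays of EDL nuclei, at 6.61, 7.19 and 6.36 against 7.47, 7.44 and 7.44 in soleus, and at 5.39, 7.17 and 7.72 against 7.39, 7.58 and 7.70 in TA. The fractions overlapped in TA, where cytoplasm 1 was the lowest array, as it was for Malat1. The difference was 0.80 over the 3 muscles (SE 0.24, 1.74-fold, limma adjusted p = 0.0075), and passed the test in no single muscle (0.86, 0.73 and 0.80, with adjusted p of 0.098, 0.17 and 0.11 in EDL, soleus and TA). In TA without cytoplasm 1 it was 0.11 (0.71), and with the mice as a block EDL gave 0.86 (0.028) and TA 1.21 (0.014). The block leaves out TA replicate 3, whose fractions came from different mice. The value of 1.21 thus rests on TA replicates 1 and 2, among them TA cytoplasm 1. The other probe, A_55_P1996742, lay at 5.13, 4.35 and 4.69 against 6.03, 7.02 and 5.54 in EDL, at 5.35, 5.06 and 4.94 against 5.52, 5.75 and 5.53 in soleus, and at 5.56, 6.46 and 6.29 against 6.19, 6.48 and 6.66 in TA. It gave 0.76 over the 3 muscles (SE 0.19, 1.70-fold, 0.0023), with EDL at 1.47 (0.0022), soleus at 0.48 (0.27) and TA at 0.34 (0.40).

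Pspc1, the third DBHS protein, gave no usable comparison. Its probe was not well above background on any of the 18 arrays, and in EDL and soleus cytoplasm it had no value at all. TA cytoplasm gave 2.81 and 3.19 on 2 arrays and TA nuclei 3.36 and 3.77 on 2 arrays. TA was the only muscle in which the fit could test it, and it was not called there (limma adjusted p = 0.16).

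Counted by arrays, the 3 nuclear values lay above all 3 cytoplasmic values for 10 of the 10 member probes measured on all 6 arrays of EDL (32.0% of all such probes), for 7 of 10 in soleus (28.5%) and for 8 of 10 in TA (22.6%). The overlaps were Sfpq and both Nono probes in soleus and both Rbm14 probes in TA.

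**Figure D2:**
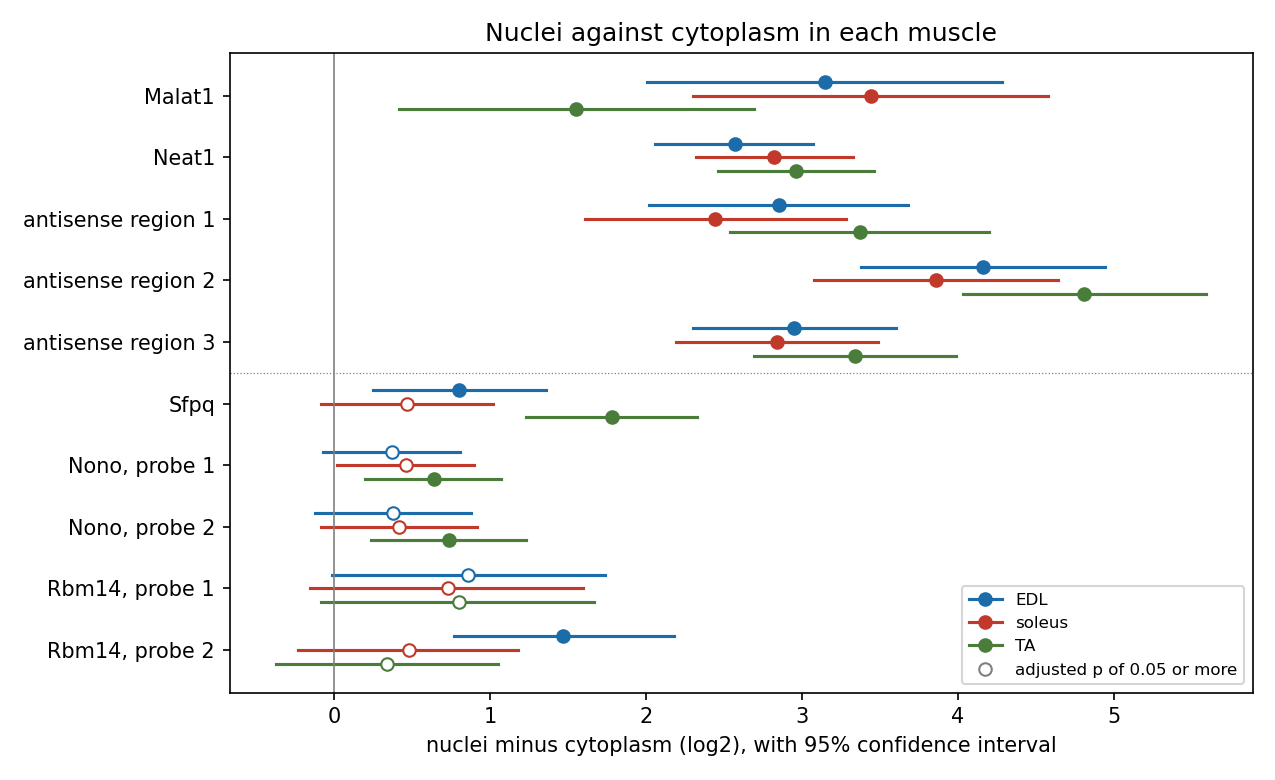
Nuclei minus cytoplasm (log2, x axis) with 95% confidence intervals for 10 probes in EDL, soleus and TA; open points have an adjusted p of 0.05 or more. The non-coding RNAs lay between 1.55 and 4.81 and the mRNAs between 0.34 and 1.78.

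No member probe showed a fraction difference that depended on the muscle (limma F test, 0 of 10, beside 1.57% of all probes). At an unadjusted p under 0.05 the count was 1 of 10. For Malat1 the TA difference was smaller than that of soleus by 1.89 (95% confidence interval -3.49 to -0.28, adjusted p = 0.17), and for Sfpq it was larger by 1.31 (0.061). Without TA cytoplasm 1 the F test called 2 probes, Malat1 (adjusted p = 0.02) and A_30_P01033068 (0.018).

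The comparison of each non-coding RNA with each protein mRNA used the difference of both on the same array, so that a constant shift of a whole array cancels. Changes that vary with the signal level, as in quantile normalization or background correction, do not cancel. With another background correction (normexp) Malat1 differed by 2.01 and Sfpq by 0.80 over the 3 muscles, against 2.71 and 1.02 here. Sfpq, Nono and Rbm14 served as the mRNAs. Over the 3 muscles all 15 pairs of the 5 non-coding probes with the 3 mRNAs were higher in nuclei, beside 4.55%, 12.8% and 4.55% of all probes for Sfpq, Nono and Rbm14. The nuclear excess of Malat1 was larger than that of Sfpq by 1.70 (95% confidence interval 1.01 to 2.38, limma adjusted p = 0.00014), than that of Nono by 2.20 (1.45 to 2.95, 4.4e-05) and than that of Rbm14 by 1.92 (1.30 to 2.54, 4.3e-05). For Neat1 the same differences were 1.77 (1.41 to 2.12, 6.3e-08), 2.27 (1.99 to 2.55, 2.2e-09) and 1.99 (1.39 to 2.59, 2.3e-05). The antisense probe A_30_P01022204 exceeded the mRNAs by 3.26, 3.77 and 3.48.

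In EDL and soleus taken alone, Malat1 and Neat1 each exceeded all 3 mRNAs, Malat1 by 2.29 to 3.02 and Neat1 by 1.70 to 2.41. Of all probes 3.78%, 8.62% and 1.52% exceeded Sfpq, Nono and Rbm14 in EDL and 5.39%, 7.20% and 1.24% in soleus. In TA the calls of the Malat1 and Neat1 probes parted, a difference that was not itself tested. The comparison is not given here for the other probes on the strand of Malat1. Neat1 exceeded Sfpq by 1.18 (adjusted p = 0.0012), Nono by 2.23 (8.3e-06) and Rbm14 by 2.16 (0.0056), whereas Malat1 differed from Sfpq by -0.23 (95% confidence interval -1.42 to 0.96, 0.71), from Nono by 0.82 (-0.48 to 2.12, 0.27) and from Rbm14 by 0.75 (-0.32 to 1.83, 0.26). In EDL 15 of the 15 pairs were called and in soleus 14, the exception being the antisense probe A_30_P01033068 against Rbm14 (1.72, adjusted p = 0.11). In TA 12 of the 15 were called, beside 0.632%, 5.65% and 1.62% of all probes. Without TA cytoplasm 1 the Malat1 values were -0.94, -0.04 and 0.62.

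**Figure D3:**
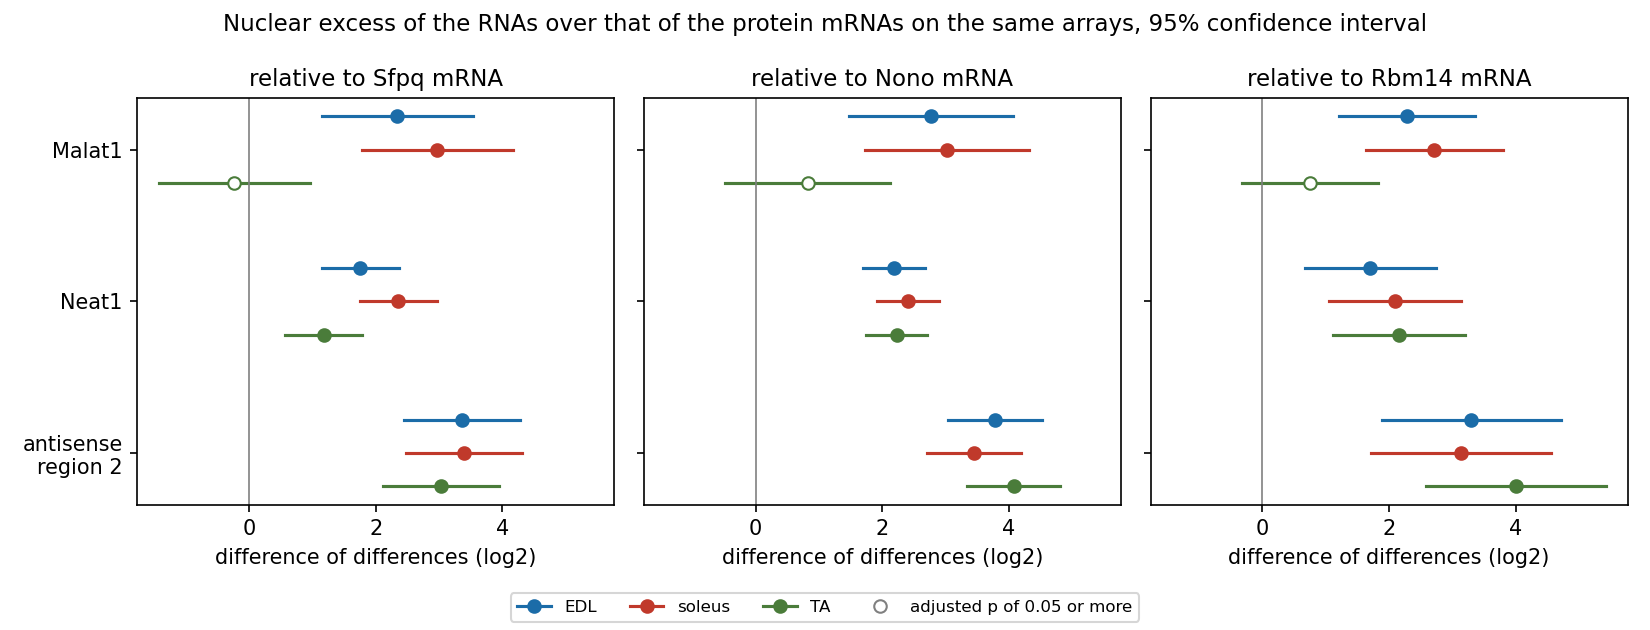
Difference between the nuclear excess of Malat1, Neat1 or the antisense probe A_30_P01022204 (region 2) and that of Sfpq, Nono or Rbm14 mRNA on the same arrays (log2, x axis), with 95% confidence intervals, in EDL, soleus and TA; open points have an adjusted p of 0.05 or more. Only the 3 Malat1 values of TA, -0.23, 0.82 and 0.75, are open.

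Whether single probes stand for their genes was seen from the other probes of both loci. The array holds 35 probes in the intervals that its annotation gives for Malat1 (chr19:5795689-5802671) and Neat1 (chr19:5842306-5845476) and in the stretch into which the long form of Neat1 runs, 30 of them under names that are no member. On the strand of Malat1 11 of 11 probes were higher in nuclei over the 3 muscles, beside 31.2% of all probes, with a median of 2.79 and a range of 1.85 (A_30_P01031754, SE 0.16) to 3.77 (A_30_P01020935, SE 0.13). On the strand of Neat1 9 of 9 were higher (median 2.84, 1.64 to 3.66). All 20 were also called in each muscle, beside 20.0%, 18.7% and 19.2% of all probes in EDL, soleus and TA. These counts and medians include the Malat1 probe and A_30_P01019221, which has the same 60 bases. They also include the Neat1 probe with A_30_P01020135 and A_30_P01021631, which share 30 bases each with it. Those probes are no independent measure of their genes. The median of all probes of the array was -0.08.

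The Malat1 probe has the same 60 bases and position as the array's NEAT2 probe A_30_P01019221, NEAT2 being another name of Malat1. The values of this pair differed by 0.13 in the median over the 18 arrays and by 0.58 at most, on soleus cytoplasm 3. The twin gave a TA difference of 1.53. The probes next to it, A_30_P01031072, A_30_P01020325 and A_30_P01028538 (6808, 6868 and 6889 bases from the start), differed in TA by 1.66, 2.11 and 2.55. In EDL they differed by 3.0, 2.69 and 4.15. A_30_P01020325 lay at 7.07 to 7.63 in TA cytoplasm, where the Malat1 probe lay at 6.32 to 8.78. The weak TA difference of the Malat1 probe thus varied with the probe. At the other end of the gene the TA cytoplasm arrays did not part in 1 common way. The probe A_30_P01031754, 511 bases from the start, lay at 12.60, 13.89 and 13.85 there, with array 1 the lowest as in the Malat1 probe, and A_30_P01021970, 450 bases from the start, at 11.14, 10.13 and 10.40, with array 1 the highest. A_30_P01028215, 374 bases from the start, lay at 9.95, 10.33 and 10.36 in TA cytoplasm and at 13.09, 13.13 and 12.91 in TA nuclei. It differed by 2.90 in EDL, by 2.75 in soleus and by 2.83 in TA. Over the 11 probes of the strand the medians were 3.15 (EDL), 3.34 (soleus) and 2.55 (TA).

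Along Neat1 the widest difference came from the region chr19:5834117-5835940_R, which lies beyond the interval given for the short form. There A_30_P01025818, 10843 bases from the start, differed by 3.66 (SE 0.32), and the other probes by 3.37 (SE 0.40) and 2.84 (SE 0.15). The smallest was A_30_P01025798, 2720 bases from the start, with 1.64 (SE 0.19). The sequence of A_30_P01025818 is shown because it lies outside the short form.
Neat1 long form, A_30_P01025818: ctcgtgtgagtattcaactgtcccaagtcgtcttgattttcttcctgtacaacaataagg

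The strand opposite to Neat1 behaved less evenly. Of 12 probes 11 were higher in nuclei, beside 31.2% of all probes, and 1 was lower, beside 38.6%, with a median of 1.48, from 2.78 (A_30_P01029504, SE 0.17, 8 bases from the Neat1 start) to -0.37 (A_30_P01020769, SE 0.13, limma adjusted p = 0.017, 394 bases). The lowest probe overlaps A_30_P01021879, which differed by 0.84 (SE 0.10, adjusted p = 3.1e-06). Their shared 43 bases are in capitals.
A_30_P01020769: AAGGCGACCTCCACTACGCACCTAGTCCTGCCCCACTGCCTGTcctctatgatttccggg
A_30_P01021879: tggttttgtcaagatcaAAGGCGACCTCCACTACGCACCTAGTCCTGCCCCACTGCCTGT
The call of A_30_P01020769 held under 22 of 25 alternatives, among them scaling to the 75th percentile (-0.30, adjusted p = 0.018), and its value turned to 0.41 with no scaling between arrays. Relative to the median of all probes it was -0.29 here and -0.01 under each of these scalings. Within the muscles it stood at -0.50 (EDL, adjusted p = 0.072), 0.04 (soleus, 0.90) and -0.64 (TA, 0.022).

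**Figure D4:**
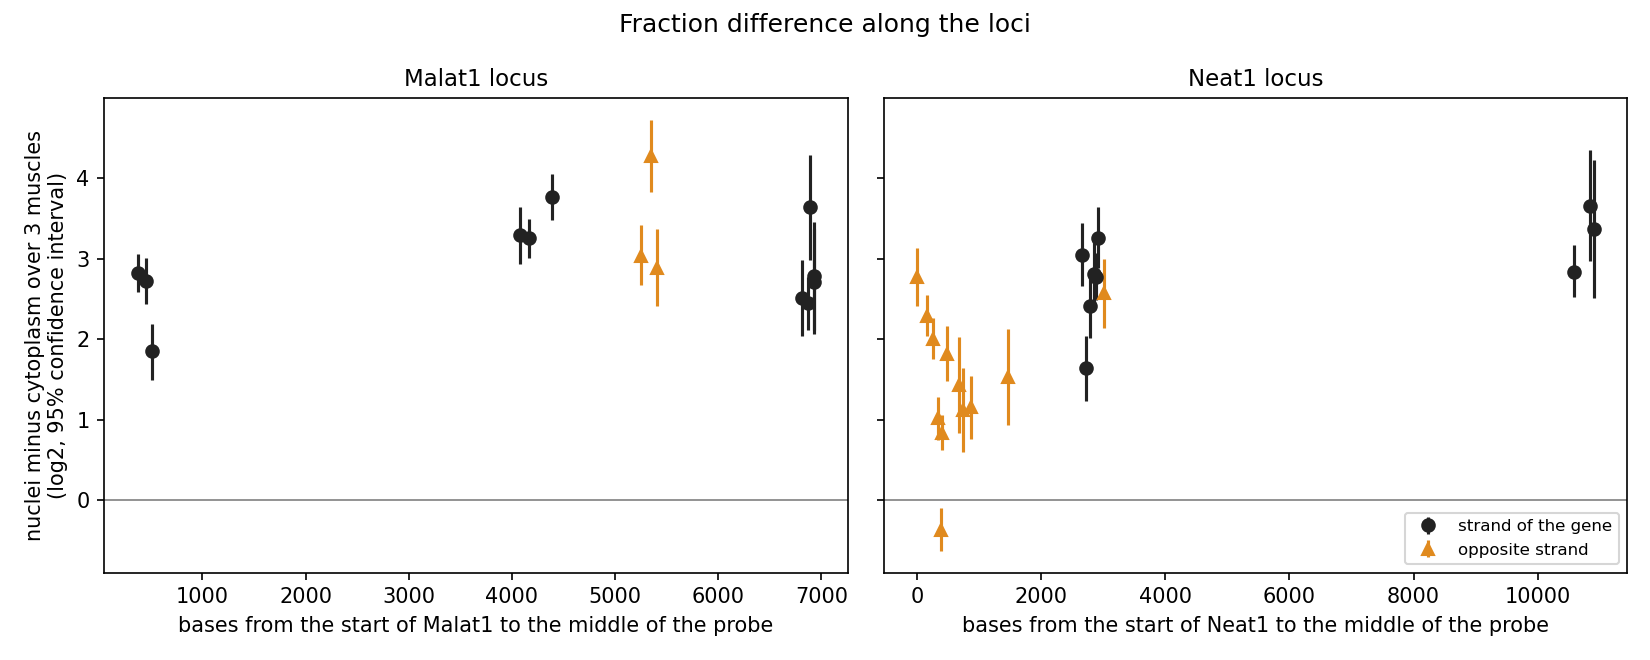
Nuclei minus cytoplasm over the 3 muscles (log2, y axis) with 95% confidence intervals for the 35 probes of the Malat1 and Neat1 loci, by bases from the start of the gene to the middle of the probe (x axis); circles lie on the strand of the gene and triangles on the opposite one. On the strand of the genes the values ran from 1.64 to 3.77, and 1 opposite-strand probe of Neat1 lay at -0.37.

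The level of Neat1 differed between muscles within each fraction. It was lowest in TA, where muscle cannot be told apart from slide in nuclei: TA minus EDL was -0.77 in nuclei (limma adjusted p = 0.037) and -1.16 in cytoplasm (0.0086). TA minus soleus was -1.37 in nuclei (0.0013) and -1.51 in cytoplasm (0.00059). Soleus minus EDL was 0.60 in nuclei (0.36) and 0.35 in cytoplasm (0.53), so the order soleus, EDL, TA is held by the tests against TA and not by that between soleus and EDL. The fit used 1 spread per probe for both fractions. The SD of Neat1 was 0.03 and 0.06 in EDL and soleus nuclei and 0.36 and 0.41 in their cytoplasm. In nuclei the EDL arrays (12.80 to 12.87) and the soleus arrays (13.36 to 13.48) did not overlap. On slide 1, which holds 1 TA cytoplasm array beside EDL and soleus cytoplasm, TA minus soleus was -1.46 (0.009) and TA minus EDL -1.12 (0.096), where the lone TA array was assumed to vary like the other groups. With the mice of the pools as a block only TA minus soleus in nuclei was still called for Neat1. Against EDL it gave -0.76 (0.23) in nuclei and -1.33 (0.26) in cytoplasm, and against soleus -1.68 (0.086) in cytoplasm. In that fit TA shares no block with EDL or soleus. It sets TA at the level of TA nuclei 3 and the other muscles at that of mice 3 and 4, so it cannot show what pairing would give.

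Neat1 was the only member called between muscles in nuclei, where the slides differed too, with 1 of 12 probes lower in TA than in EDL (17.4% of all probes were called in either direction) and 1 of 12 lower in TA than in soleus (19.6%). In cytoplasm, TA minus EDL gave 2 higher and 2 lower probes of 10 (12.4%), and TA minus soleus 2 higher and 7 lower of 10 (28.6%). The lower ones were Neat1, Sfpq (-1.03 against EDL, adjusted p = 0.02, and -1.66 against soleus, 0.00057), and, against soleus, both Nono probes (-0.68 and -0.65) and the 3 antisense probes (-1.50, -1.05 and -1.45). The higher ones were the Malat1 probe (1.70 against EDL, 0.05 as rounded, and 2.05 against soleus, 0.012) and Rbm14 by A_55_P1996742 (1.38 and 0.98). Other Malat1 probes near it rose less. A_30_P01020325 had cytoplasm means of 7.44 (TA), 7.32 (EDL) and 7.27 (soleus), and A_30_P01031072 of 7.91, 7.31 and 7.26. Within slide 1, again with 1 TA array, Sfpq stood at -1.87 against soleus (0.008), while Malat1 stood at 0.06 against EDL (0.96) and 0.41 against soleus (0.57), and the antisense probe A_30_P01022204 at -0.42 against soleus (0.25). With the mice as a block, 0 of the 13 calls in cytoplasm and 1 of the 2 in nuclei were left, but that fit does not pair TA with EDL or soleus. Between soleus and EDL limma called no member in nuclei (0 of 12, 1.56% of all probes) or in cytoplasm (0 of 11, 1.42%), with 1 probe in each at an unadjusted p under 0.05.

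The mRNAs of other proteins found in paraspeckles were mostly higher in nuclei too. Of 29 listed genes 28 were tested, and 22 were higher, 1 lower and 5 not called, with a median of 0.68. Of all probes 31.2% were higher and 38.6% lower. The highest were Rbm4b (2.18, SE 0.16, limma adjusted p = 2e-08), a splicing regulator, Taf15 (2.00, SE 0.20, 4.7e-07), an RNA-binding protein, and Srsf10 (1.89, SE 0.15, 3.9e-08), a splicing factor. Ubap2l, a protein of stress granules, was lower (-0.59, SE 0.10, 0.00011, but not called lower with no scaling between arrays), and another probe of it was called the other way, as were probes of Hnrnpa1 and Rbm3. By muscle 16 were higher in EDL, 13 in soleus and 16 in TA, beside 20.0%, 18.7% and 19.2% of all probes. Lower were 1 in EDL, 0 in soleus and 2 in TA, beside 26.5%, 21.7% and 33.5%.

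For proteins of nuclear speckles, the bodies of Malat1, 21 of 22 genes were tested, and 17 were higher, 1 lower and 3 not called, with a median of 1.17. Clk1, a kinase of splicing factors (2.58, SE 0.21, limma adjusted p = 5.2e-08), Luc7l3, a splicing protein (1.98, SE 0.16, 5.3e-08), and Son, the scaffold of the speckle (1.91, SE 0.13, 1.1e-08), were the highest, and U2af2, which recognizes the 3′ splice site, was the lower one (-0.50, SE 0.11, 0.00065, again not called lower with no scaling). Another probe of Ddx39b, an RNA helicase, was called the other way. By muscle 13 were higher in EDL, 15 in soleus and 13 in TA, beside 20.0%, 18.7% and 19.2% of all probes. Lower were 0 in EDL, 0 in soleus and 1 in TA, beside 26.5%, 21.7% and 33.5%. The Sfpq, Nono and Rbm14 differences of 0.49 to 1.02 lay within the range of both lists. The differences of the Neat1 and Malat1 member probes, 2.78 and 2.71, lay above that of every listed gene over the 3 muscles. This did not hold in TA, where Clk1 differed by 3.93, Neat1 by 2.96 and Malat1 by 1.55. It did not hold for every probe of the genes either. Over the 3 muscles the probes on their strands ran from 1.85 to 3.77 (Malat1) and from 1.64 to 3.66 (Neat1). The lowest of each lay below Clk1, Luc7l3 and Son. Without TA cytoplasm 1 the Malat1 difference over the 3 muscles was 2.44. Over the 3 muscles, all these lists stand beside 31.2% of probes higher, 38.6% lower and a median of -0.08 over the array. High shares were not particular to them. In the marker lists, read by the same rule, 6 of 6 endothelial, 5 of 6 connective tissue, 3 of 4 Schwann cell and 6 of 8 myofiber genes were higher. None of 4 macrophage and 3 erythroid genes was.

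**Figure D5:**
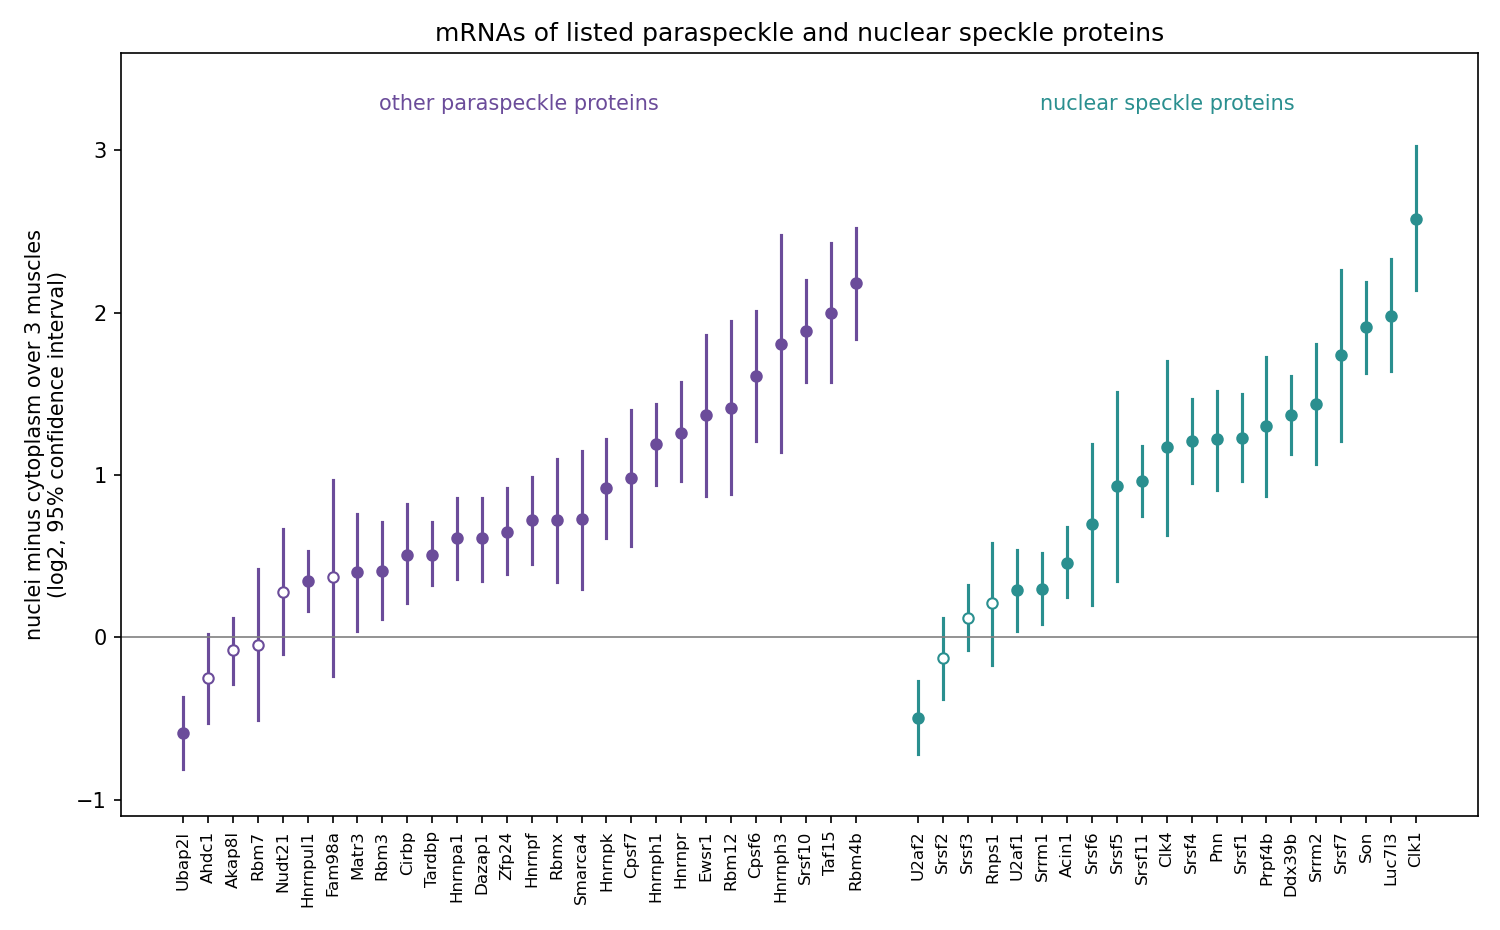
Nuclei minus cytoplasm over the 3 muscles (log2, y axis) with 95% confidence intervals for the mRNAs of 28 other paraspeckle proteins and 21 nuclear speckle proteins (x axis, ordered by value); open points have an adjusted p of 0.05 or more. The values ran from -0.59 (Ubap2l) to 2.18 (Rbm4b) and from -0.50 (U2af2) to 2.58 (Clk1).

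Over the 18 arrays the probes most like Malat1, among 35528 with a value on every array, were those of Erdr1 (Pearson r = 0.975), Dvl1 (0.972), Terf2 (0.964), Sh3pxd2a (0.961) and the region chr17:12990484-13018375_F (0.961). For Neat1 they were Tsc1 (0.990), Ralgapa1 (0.987), Dst (0.987), Cnot8 (0.987) and AW549877 (0.985). These are descriptions without a test, since the arrays share their fraction, slide and RNA pool.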

How the data were processed

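Fibers were lysed in a Triton buffer and RNA was extracted with TRIzol. The deposited scanner files hold, per spot, the processed signal intensity of Agilent Feature Extraction 10.7.3.1 on a one-colour array designed on mm9. The authors' value table holds quantile-normalized intensities for 3668 probe names, of which the log2 was taken here. Here, as the study's methods describe, spots without the positive and significant flag were set to missing, log2 intensities were quantile-normalized and spots averaged by probe name. Spots with an outlier flag were also set to missing. The study's significance analysis was replaced by limma 3.58.1 (R 4.3.3): 6 group means, eBayes, Benjamini-Hochberg over all probes with values on at least 2 of 3 arrays of each group involved, threshold 0.05, two-sided. The code was tested on simulated data. No array counts molecules, and the number of arrays limits the precision; the median SD was 0.11 to 0.15 among nuclear and 0.25 to 0.40 among cytoplasmic replicates, and within-group correlations were 0.906 or higher.

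Replicates were pools of fibers. In EDL and soleus, replicates of 1 number came from the same mice in both fractions and both muscles, per the labels, and in TA only in part. Deviations of same-numbered arrays from the group means correlated at -0.09 to 0.13. The main fit had no block, and the mice as a block were the paired alternative in EDL and soleus. In TA the block paired replicates 1 and 2 and gave each array of replicate 3 a level of its own. Mouse 5, in TA cytoplasm 1 and 2 and in replicate 2 of EDL and soleus, was not coded as shared. The block thus does not pair TA with the other muscles. The p-values measure the spread between these pools, taken as 1 value per probe for nuclear and cytoplasmic groups alike. Named were all member probes, in each list the 3 largest called differences in each direction, and the extremes of each locus and strand. Probes called lower there and the 5 most similar probes were named too. A_30_P01028215, A_30_P01021970, A_30_P01021879, A_30_P01019221, A_30_P01031072, A_30_P01020325, A_30_P01028538 and the other long-form probes were added after their values were seen. One gene of the first list is not reported here. A listed gene is read by its brightest tested probe. Sf3b1 and Ss18l1 had no testable probe. Of 3 satellite cell markers only Cdh15 was tested, and it was not called. Pspc1 could not serve as a reference mRNA because it was not testable over the 3 muscles or in EDL and soleus. Members and lists were chosen with earlier results of these data known.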

Additional observations from a re-analysis of the deposited data

How the results depend on the processing

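Of 29 alternatives, 18 left out 1 array each. The 10 calls over the 3 muscles held under every leave-one-out fit and under each other scaling, background and filter. With the nuclear arrays of a muscle averaged to 1 sample, both Nono probes (0.49, adjusted p = 0.14, and 0.51, 0.15) and Rbm14 A_51_P116616 (0.80, 0.16) were lost. The deposited value table holds mainly non-coding probes, so it gave 2 calls over the 3 muscles and 2 in each muscle, 3 between muscles in cytoplasm, 20 higher and 0 lower probes in the loci, 0 higher and 0 lower other paraspeckle genes and 1 higher and 0 lower speckle genes, and the comparison with the mRNAs was not run on it.

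With nuclear arrays as 1 sample the calls were 4 in EDL, 3 in soleus and 4 in TA, 0 between muscles in nuclei and 2 in cytoplasm, 5 pairs in TA, 0 lower probes in the loci, 11 higher and 0 lower paraspeckle genes and 11 higher and 0 lower speckle genes. With no scaling, which moved the median of all probes by 0.50, soleus had 11 calls, the muscle dependence 1 (Malat1), nuclei 7 between muscles, and the loci and both lists 0 lower; A_30_P01020769 turned to 0.41. The share of higher among all called probes was 44.8% in the main fit, 35.9% with the 75th percentile, which moved the median by -0.22, and 70.1% with no scaling. The 75th percentile left 1 call between muscles in nuclei, and requiring signals well above background left 0 lower probes in the loci. The cause of these changes was not tested.

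With the replicate block, 1 call between muscles in nuclei and 0 in cytoplasm were left of 2 and 13. These calls set TA against EDL or soleus, which the block does not pair, so the loss cannot show what pairing would give. In single tests against cytoplasm, of the members, the block changed the calls of Nono and Rbm14 that are given beside their values. Within slide 4, Rbm14 A_55_P1996742 in TA turned to -0.02. The fit of TA cytoplasm within slide 1 was chosen after seeing the data.

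Leaving out 1 array, the calls dependent on muscle were 0 to 2 (2 without TA cytoplasm 1), those between muscles 1 to 6 in nuclei (6 without TA cytoplasm 1) and 3 to 18 in cytoplasm (3 without TA cytoplasm 2, 8 without soleus cytoplasm 2), and the lower paraspeckle genes 1 to 2 (2 without soleus cytoplasm 2). In TA, Malat1 relative to Sfpq ran from -0.94 to 0.20 and relative to Nono from -0.04 to 1.36. Pspc1 was limited by its signal, which was not well above background on any array.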
